A study of Mus musculus with 10 samples.

Results

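The extracellular matrix receptors and basement membrane genes of the mammary epithelium were examined as a set of 42 genes, chosen by name from the 24594 genes of the count table. The set takes every gene named as an integrin alpha chain (18) or beta chain (8), every laminin chain (11), and 5 further genes that act with them, namely Plec, Dst, Cd151, Dag1 and Bcam. RNA-seq reads were counted in 10 libraries of sorted mammary epithelial cells from wild type C57BL/6J mice, 5 of luminal cells, which line the duct lumen, and 5 of basal (myoepithelial) cells, which surround them. The animals carried no further allele and received no treatment that the labels give. Their age is not in the labels, though the study's methods give a general age range for its mice. Cells were freed from the gland with collagenase, hyaluronidase, trypsin and dispase and separated by flow cytometry on EpCAM and CD49f, proteins of the cell surface. Lineage antibodies enter the study's methods too, against CD45 (leukocytes), CD31 (endothelium) and an erythroid antigen. CD49f is the integrin alpha6 chain, the product of Itga6, so Itga6 is described here without a test and is left out of the counts.

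Libraries were assigned by their cell type label, which the source name and the letter in the library description share. Each of the 10 titles gives the other cell type. Lineage markers followed that label: all 9 luminal markers were higher in the luminal libraries and all 7 basal markers in the basal libraries. In luminal libraries each basal marker stood at between 0.0259 and 1.10% of its basal mean. In basal libraries the luminal markers Prlr, Elf5, Kit and Cd14 stood at 0 to 0.935% of their luminal means, Krt19 and Pgr at 1.67 to 5.42%, and Krt8, Krt18 and Esr1 at 8.99 to 26.7%. Total counts ran from 13203146 to 17998165 per library. The sorted cells were measured in bulk, so fewer cells of one kind and less RNA per cell cannot be told apart.

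Integrins are receptors made of an alpha and a beta chain that tie the cell to its matrix and pass signals in both directions across the membrane. Laminins are cross-shaped trimers of an alpha, a beta and a gamma chain that form, with type IV collagen, the sheet called the basement membrane. Hemidesmosomes are the anchoring plaques at which the alpha6 beta4 integrin binds laminin outside the cell and plectin and the epithelial form of dystonin (BPAG1e) link it to keratin filaments inside. In the mammary duct the basal cells lie directly on the basement membrane, whereas most luminal cells rest on the basal layer.

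Most of these genes were more abundant in the basal cells. Of the 42 genes, 36 passed the low-count filter, and 35 remained without Itga6. In edgeR's quasi-likelihood test, fitted across all 14609 genes tested, 23 of the 35 were higher in basal cells (65.7%) and 5 were higher in luminal cells (14.3%), at a Benjamini-Hochberg adjusted p under 0.05. Across all genes tested 64.8% passed, 31.2% as higher in basal cells and 33.6% as higher in luminal cells. The 5 genes higher in luminal cells were Itga2, Itgb5, Itgb6, Lama5 and Plec. Of these, 3 were left without luminal replicate 1, without basal replicate 1 or without a low-count filter, as Itgb5 and Plec no longer passed. With DESeq2 size factors, DESeq2, limma voom or the replicate number as a block, 4 were left, as Itgb5 no longer passed. The median log2 fold change (luminal minus basal) of the 35 genes was -1.25, against 0.05 for all genes tested. Luminal and basal values did not overlap for 24 of the 35 (68.6%), against 50.1% of all genes tested. For 21 of those 24 the basal libraries were the higher ones, and for 3 the luminal libraries. Levels are given as depth-scaled counts (CPM) on the scaled library total, in the order of replicates 1 to 5. Gene coordinates are those of RefSeq on build GRCm38.p6 (mm10).

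**Figure D1:**
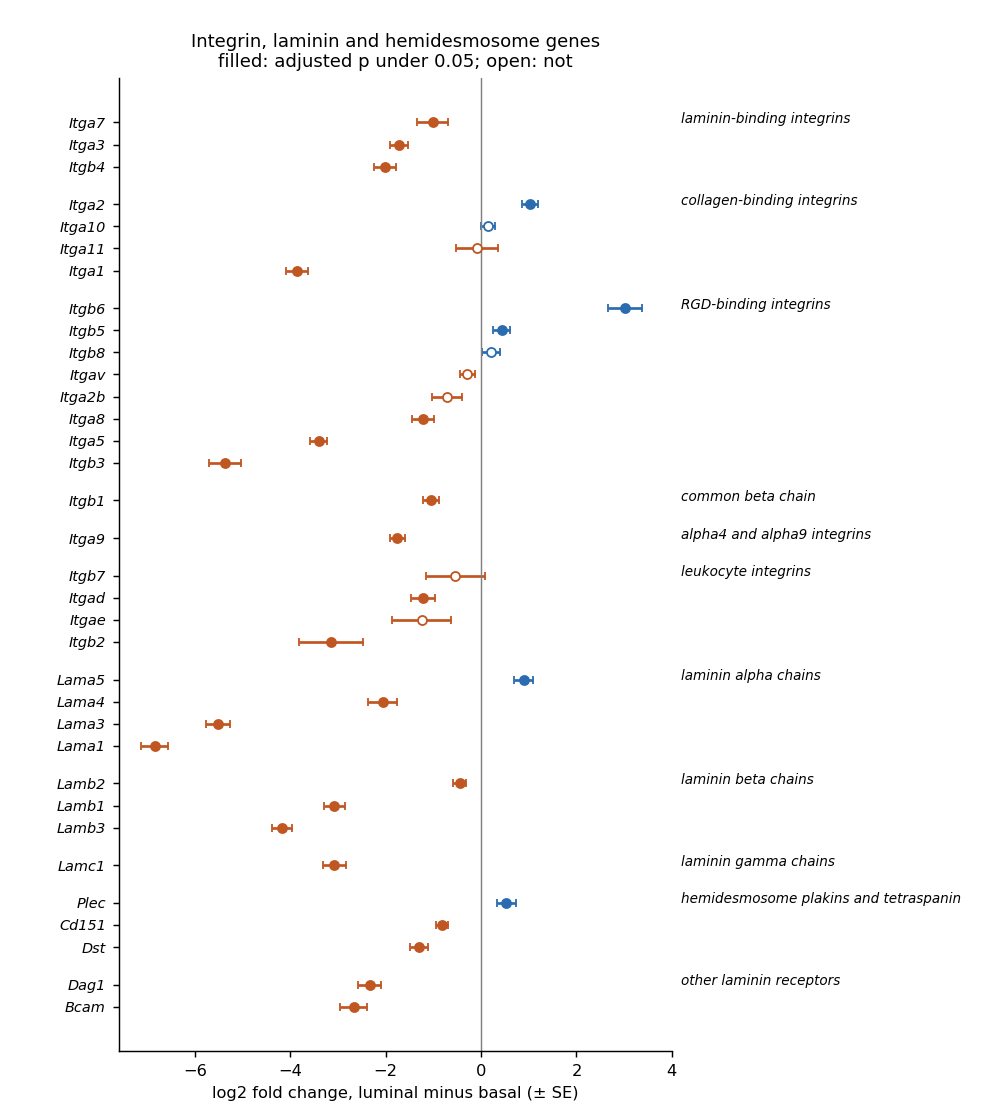
Log2 fold change between luminal and basal cells (x axis, luminal minus basal, bars show the SE) for 34 tested genes other than Itga6, grouped by role. Filled points passed an adjusted p under 0.05 and open points did not. The points run from -6.84 for Lama1 to 3.02 for Itgb6, with 22 filled points left of 0 and 5 right of it.

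The laminin alpha chains, which carry the main sites for cell receptors, split between the cell types. Lama5 (alpha5, chr2:180176373-180225904) was the leading alpha chain gene of luminal cells and was higher there than in basal cells. It measured 762, 1016, 887, 556 and 632 CPM in luminal libraries and 399, 506, 436, 298 and 434 CPM in basal libraries. Every luminal library was above every basal library, and the test gave a log2 fold change of 0.89 (SE 0.19, adjusted p = 0.00105), or of 1.80 with offsets for GC content and transcript length. The alpha3 chain gene Lama3, whose product is the alpha chain of the hemidesmosome ligand laminin-332, went the other way. Lama3 measured 8.07, 9.43, 9.14, 9.70 and 14.3 CPM in luminal libraries and 468, 627, 535, 283 and 415 CPM in basal libraries. The basal mean was 46.0 times the luminal mean, the groups were far apart, and the test gave a log2 fold change of -5.52 (SE 0.25, adjusted p = 3.72e-10; -4.92 with the same offsets).

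Lama1 (alpha1, the chain of the laminin found in the early embryo, chr17:67697127-67822645) had the most negative fold change of the 35 genes. It measured 0.688, 0.421, 0.184, 0.763 and 0.888 CPM in luminal libraries, from 3 to 14 reads each, and 82.1, 61.0, 73.4, 57.8 and 62.8 CPM in basal libraries. The test gave -6.84 on the log2 scale (SE 0.28, adjusted p = 1.91e-10), or -6.25 with the offsets. The luminal values came to between 0.273 and 1.32% of the basal mean, a range that overlaps the 0.0259 to 1.10% seen for the 7 basal markers in the same libraries. Those of Lama3 came to between 1.73 and 3.06%, above that range in all 5 luminal libraries. The part of basal cell RNA in these luminal values was not tested. Lama4 (alpha4, a chain of vessel and muscle basement membranes) was scarce in both cell types, at 2.44 ± 0.856 CPM in luminal cells and 10.2 ± 2.82 CPM in basal cells (SD, n = 5), and was higher in basal cells (log2 fold change -2.06, SE 0.30, adjusted p = 3.62e-05). Lama2, the muscle and nerve chain, did not pass the filter, with 2 to 20 reads in luminal libraries and 0 to 11 in basal libraries.

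All 3 beta chain genes were higher in basal cells, by very unequal amounts, against 31.2% of all genes tested. Lamb3 (beta3, the beta chain of laminin-332, chr1:193294353-193343878) measured 59.8, 42.6, 37.2, 32.7 and 40.1 CPM in luminal libraries and 616, 895, 859.5, 824 and 618 CPM in basal libraries. The basal mean was 17.9 times the luminal mean with no overlap (log2 fold change -4.17, SE 0.21, adjusted p = 8.30e-10). Lamb1 (beta1, the widespread beta chain, chr12:31265146-31329644) measured 14.7, 10.2, 11.04, 5.65 and 10.7 CPM in luminal libraries and 71.7, 93.1, 109, 85.6 and 82.9 CPM in basal libraries. It was higher in every basal library (log2 fold change -3.08, SE 0.22, adjusted p = 2.53e-08). Lamb2 (beta2, a chain of kidney and synaptic basement membranes, chr9:108479847-108490530) differed far less. It measured 86.6, 112, 94.1, 79.8 and 93.2 CPM in luminal and 111, 147, 134, 129 and 115 CPM in basal libraries. The highest luminal value was just above the lowest basal one, the basal library was the higher of the same-numbered pair in all 5 pairs, and the test gave a log2 fold change of -0.45 (SE 0.13, adjusted p = 0.00802). That call was lost when libraries were scaled by their totals alone (log2 fold change -0.26, adjusted p = 0.138) and with offsets for GC content and transcript length (-0.03, adjusted p = 0.868). Over all alternatives its adjusted p ran from 0.000917 to 1, the upper end being that of the test against a 2-fold change.

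The promoters of the set were read from the RefSeq promoter table of build GRCm38.p6, which gives 250 bases before and 50 bases after each start site. Of the 42 genes, 27 matched, with 33 promoters. The Lamb3 promoter is shown because Lamb3 had the most negative fold change among the genes with a promoter in the table. The 250 bases before its start site are at chr1:193301744-193301993 (plus strand, inside the span of longer Lamb3 gene models) and hold 58.8% G or C with 2 CG dinucleotides.
Lamb3: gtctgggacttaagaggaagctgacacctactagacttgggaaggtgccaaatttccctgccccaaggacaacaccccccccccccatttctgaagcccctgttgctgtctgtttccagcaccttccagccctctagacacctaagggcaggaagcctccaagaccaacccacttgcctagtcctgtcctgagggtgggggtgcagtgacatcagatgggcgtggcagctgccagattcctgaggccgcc
Here and below sequences are written 5′ to 3′ on the strand of the gene in lower case, with matches to the letters searched in capitals. The letters were TGANTCA for AP-1, GGAATG for TEAD factors, AGATAA for GATA factors, the SRF box and the p63 site, on both strands over the whole 300 bases. This Lamb3 window holds no match. TGANTCA was found in 3 of the 33 promoters (7.81% of all 32851 promoters in the table), GGAATG in 3 (14.7% of all), AGATAA in 1 (11.2% of all), the SRF box in 2 (1.63% of all) and the p63 site in 1 (1.93% of all). No matches to different motifs overlapped. Among the 18 promoters of genes higher in basal cells, TGANTCA was in those of Itga3 and Itga9, GGAATG in those of Itgb1 and Lamb3 (a second start site), and the p63 site in that of Itga9. Among the 5 promoters of genes higher in luminal cells only a second start site of Itgb6 held a match, to the SRF box. A match describes the letters in this window and is not a measured binding site.

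Lamc1 (gamma1, the widespread gamma chain, chr1:153218922-153332786) measured 109, 73.2, 61.2, 43.9 and 73.4 CPM in luminal libraries and 769.9, 643, 546, 416 and 672 CPM in basal libraries. The groups were well separated (log2 fold change -3.08, SE 0.24, adjusted p = 7.21e-08). Lamc3 (gamma3) did not pass the filter, with 3 to 22 reads in luminal and 7 to 19 in basal libraries.

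**Figure D2:**
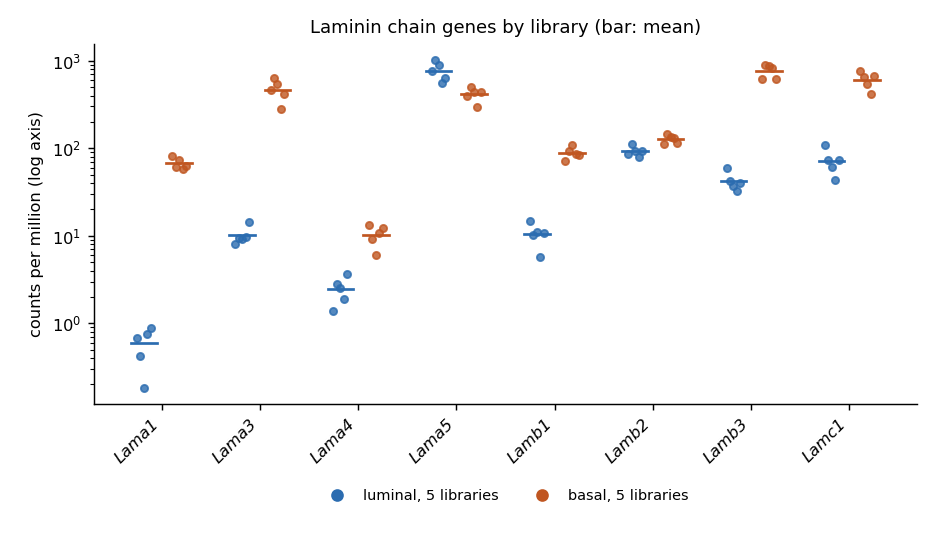
Level of 8 laminin chain genes in each library (y axis, CPM on a log scale), with luminal libraries in blue, basal libraries in orange and the group mean as a bar. Basal points lie above luminal points for Lama1, Lama3, Lama4, Lamb1, Lamb3 and Lamc1, the groups overlap for Lamb2, and luminal points lie above basal points for Lama5.

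Lama3 and Lamb3 differed in how far apart the cell types were. Within same-numbered pairs the basal level was 29.1 to 66.5 times the luminal level for Lama3 and 10.3 to 25.2 times for Lamb3. These ranges do not overlap. To compare levels between genes, CPM was divided by the length in kb of the longest annotated transcript. On that scale luminal cells held 8.73 CPM per kb of Lamb3 and 0.960 of Lama3. Basal cells held 157 and 44.1 CPM per kb of the same genes. The length used for Lama3, which makes several isoforms, was 10.55 kb, and a shorter isoform would give a higher level per kb.

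As shares of a class on the CPM per kb scale, Lama5 made up 97.7 ± 0.944% of all laminin alpha level in luminal cells and 41 ± 2.47% in basal cells (SD, n = 5). Lama3 made up 1.48 ± 0.591% and 48.8 ± 3.87%. In basal cells the levels of Lama3 (44.1 ± 12.2 CPM per kb) and Lama5 (36.4 ± 6.69) overlapped between libraries. These levels and shares rest on the longest Lama3 transcript. Lama1 held 8.16 ± 1.70% of the basal alpha level and 0.10% of the luminal one. Among beta chains, Lamb2 made up 61.4 ± 5.99% in luminal cells and 11.7 ± 0.797% in basal cells, and Lamb3 32.0 ± 4.92% and 80.4 ± 1.31%. The leading beta chain gene was therefore Lamb2 in luminal cells and Lamb3 in basal cells, each apart from the next in every library. Summed over the 11 chains, luminal libraries held 109 to 174 CPM per kb and basal libraries 406 to 547. The alpha chains alone came to 50.2 to 90.7 and 60.8 to 112, ranges that overlap.

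**Figure D3:**
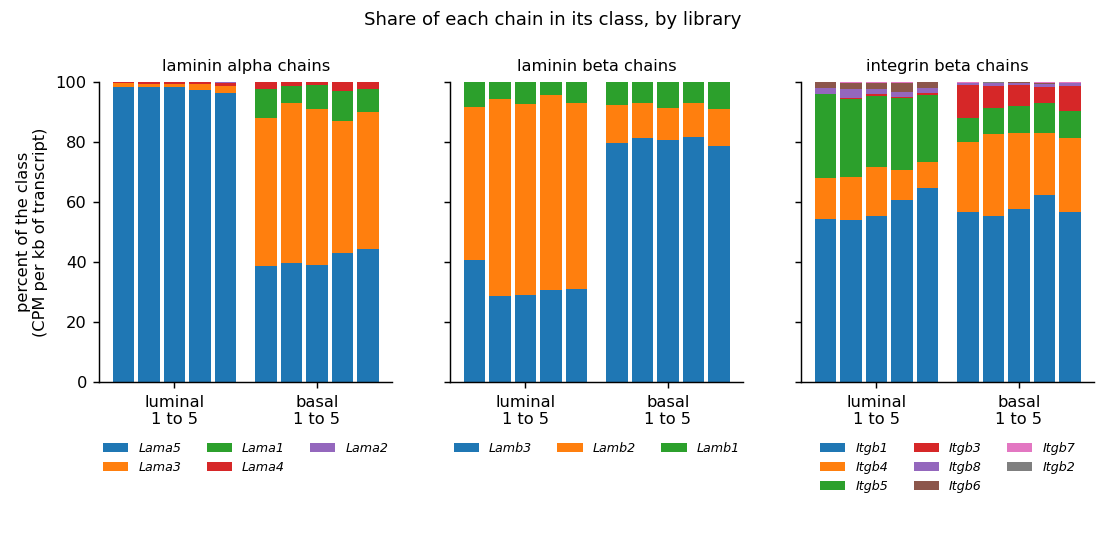
Share of each chain in its class in every library (y axis, percent of the summed CPM per kb of transcript), for laminin alpha and beta chains and integrin beta chains. Lama5 fills 97.7% of the luminal alpha bars and 41.0% of the basal ones on average, while Itgb1 fills 57.8 and 57.7% of the integrin beta bars.

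Of the laminin-binding integrins, 3 were tested and all 3 were higher in basal cells, as were 31.2% of all genes tested. Itga6 (alpha6, chr2:71786886-71858427), the sort marker, measured 175, 119, 136, 124 and 141 CPM in luminal libraries and 254, 435, 464, 302 and 326 CPM in basal libraries. All basal libraries were above all luminal ones, which is a description, since cells were separated by the level of this protein. Itgb4 (beta4, the signalling chain of the hemidesmosome integrin, chr11:115974725-116008412) measured 191, 146, 160.5, 81.2 and 105 CPM in luminal libraries and 485, 661, 643, 449 and 529 CPM in basal libraries. The groups did not overlap (log2 fold change -2.02, SE 0.22, adjusted p = 2.28e-06), and the beta4 chain pairs only with alpha6, the protein on which the cells were sorted. Itga3 (alpha3, a receptor for laminin-332 and laminin-511, chr11:95044475-95076844) measured 171, 101, 128, 81.0 and 132 CPM in luminal libraries and 403, 407, 380.3, 363 and 466 CPM in basal libraries. It was higher in every basal library (log2 fold change -1.72, SE 0.19, adjusted p = 1.90e-06). Itga7, the alpha chain known from muscle, was low in both, at 3.64 ± 1.495 and 7.35 ± 2.27 CPM (SD, n = 5), with overlap between groups and 4 of 5 pairs higher in the basal library (log2 fold change -1.01, SE 0.32, adjusted p = 0.0130).

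Itgb1 (beta1, chr8:128685654-128733579), the partner of most alpha chains, was the most abundant integrin gene per length in both cell types. It measured 471, 344, 338, 297 and 479.5 CPM in luminal libraries and 716, 825, 903, 837 and 736 CPM in basal libraries. Every basal library exceeded every luminal one (log2 fold change -1.06, SE 0.17, adjusted p = 7.46e-05). Its share of all integrin beta level was 57.8 ± 4.64% in luminal cells and 57.7 ± 2.69% in basal cells, so the beta chains as a class differed by about as much as Itgb1 did (175 ± 37.1 against 365 ± 33.2 CPM per kb). Its promoter is shown because it is the one member window free of annotated exons in which a match lies before the start site of a gene that passed the test. The window is at chr8:128685404-128685653 (plus strand), 68% G or C with 21 CG dinucleotides.
Itgb1: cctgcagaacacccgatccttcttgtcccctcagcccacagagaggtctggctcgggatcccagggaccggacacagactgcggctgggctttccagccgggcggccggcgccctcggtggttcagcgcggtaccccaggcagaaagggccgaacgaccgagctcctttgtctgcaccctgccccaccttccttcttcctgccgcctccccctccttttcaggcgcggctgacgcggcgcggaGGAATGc
The capitals mark GGAATG, the TEAD letters, close to the start site.

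The collagen-binding integrins Itga1 and Itga2 are neighbours on chromosome 13, with 26.0 kb between the genes, and went in opposite directions. Itga1 (alpha1, which prefers type IV collagen, chr13:114958079-115101964) measured 16.2, 8.64, 11.2, 16.9 and 13.6 CPM in luminal libraries and 173, 244, 244, 139 and 158 CPM in basal libraries. The basal mean was 14.4 times the luminal mean with no overlap (log2 fold change -3.85, SE 0.23, adjusted p = 4.71e-09). Itga2 (alpha2, which prefers fibrillar collagen and binds laminin in epithelia, chr13:114833081-114932100) measured 58.4, 43.7, 52.6, 39.4 and 50.1 CPM in luminal libraries and 26.2, 16.9, 30.0, 22.8 and 23.6 CPM in basal libraries. Here every luminal library was above every basal one (log2 fold change 1.03, SE 0.17, adjusted p = 1.04e-04). In luminal cells the level of Itga2 per length was 6.87 ± 1.05 CPM per kb and that of Itga1 1.21 ± 0.314. In basal cells the order turned, with 3.36 ± 0.679 for Itga2 and 17.5 ± 4.49 for Itga1. The promoters of the pair are shown for comparison. That of Itga1 is at chr13:115101965-115102214 (minus strand, 57.6% G or C, 10 CG dinucleotides) and that of Itga2 at chr13:114932101-114932350 (minus strand, 60.8% G or C, 12 CG dinucleotides), both outside annotated exons.
Itga1: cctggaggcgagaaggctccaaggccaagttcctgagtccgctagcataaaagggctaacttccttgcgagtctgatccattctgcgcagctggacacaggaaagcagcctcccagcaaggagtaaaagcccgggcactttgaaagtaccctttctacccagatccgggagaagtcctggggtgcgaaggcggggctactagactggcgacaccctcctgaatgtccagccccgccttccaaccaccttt
Itga2: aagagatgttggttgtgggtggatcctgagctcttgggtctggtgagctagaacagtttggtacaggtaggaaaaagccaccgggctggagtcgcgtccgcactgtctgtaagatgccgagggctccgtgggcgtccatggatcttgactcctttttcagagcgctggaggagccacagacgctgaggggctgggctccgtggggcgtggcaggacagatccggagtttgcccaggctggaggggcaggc
Neither window holds any of the 5 motifs. The other collagen-binding chains did not pass the test. Itga10 (alpha10, a cartilage chain) measured 30.0 ± 5.29 CPM in luminal and 27.1 ± 3.08 CPM in basal cells (log2 fold change 0.14, SE 0.15, adjusted p = 0.422), and 33.5% of its exon bases are shared with Gm42957 on the same strand, so its level is uncertain. Itga11 (alpha11, a fibroblast chain) had 17 to 32 reads in luminal and 12 to 48 in basal libraries (adjusted p = 0.871).

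The chains that recognise the RGD motif of fibronectin, vitronectin and latent TGF-beta divided by partner. Itga5 (alpha5, the fibronectin receptor chain, chr15:103344286-103366791) measured 18.6, 25.2, 21.6, 23.0 and 19.3 CPM in luminal libraries and 307, 192, 255, 189 and 196 CPM in basal libraries. The basal mean was 10.6 times the luminal mean (log2 fold change -3.40, SE 0.18, adjusted p = 1.14e-09), and the groups were far apart. Its promoter at chr15:103366792-103367041 (minus strand, outside annotated exons) holds 55.6% G or C, 11 CG dinucleotides and none of the 5 motifs, and is shown because Itga5 had the largest basal fold change among integrin alpha chain genes after Itga1.
Itga5: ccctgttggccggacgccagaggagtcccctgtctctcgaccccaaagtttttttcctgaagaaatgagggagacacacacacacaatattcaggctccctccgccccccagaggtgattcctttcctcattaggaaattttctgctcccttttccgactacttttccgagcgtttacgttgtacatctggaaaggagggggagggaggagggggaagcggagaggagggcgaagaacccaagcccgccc
Its usual partner is beta1, described above.

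Itgav (alphav, the shared partner of beta3, beta5, beta6 and beta8, chr2:83722303-83806917) was close to level between the cell types. It measured 270.4, 184, 185, 269.8 and 275 CPM in luminal libraries and 297, 282, 300.4, 278 and 286 CPM in basal libraries. The basal libraries were all above the luminal ones by a narrow margin, yet the gene did not pass the test (log2 fold change -0.29, SE 0.15, adjusted p = 0.111), and its sign turned to 0.04 with offsets for GC content and transcript length. Itgb3 (beta3, the vitronectin receptor chain, chr11:104608000-104670476) measured 1.81, 2.95, 6.50, 2.60 and 6.09 CPM in luminal libraries and 207, 169.7, 168, 112 and 166 CPM in basal libraries. The basal mean was 41.2 times the luminal mean (log2 fold change -5.36, SE 0.34, adjusted p = 7.00e-09), and the luminal values came to between 1.10 and 3.95% of the basal mean.

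Itgb6 (beta6, an epithelial chain that with alphav activates latent TGF-beta, chr2:60598292-60722603) had the largest positive fold change of the 35 genes. It measured 22.3, 16.7, 15.4, 17.9 and 17.1 CPM in luminal libraries and 0.561, 2.59, 1.47, 3.44 and 2.88 CPM in basal libraries. Every luminal library was above every basal one, all basal libraries held between 9 and 55 reads, and the test gave a log2 fold change of 3.02 (SE 0.35, adjusted p = 4.02e-06). Itgb5 (beta5, a vitronectin receptor chain, chr16:33829665-33949338) measured 208, 143, 123, 101 and 142 CPM in luminal libraries and 87.6, 109, 118, 117 and 97.8 CPM in basal libraries. The groups overlapped and 4 of 5 pairs were higher in the luminal library (log2 fold change 0.44, SE 0.18, adjusted p = 0.0434). With the replicate number as a block the Itgb5 call was lost (log2 fold change 0.40, adjusted p = 0.10). It was also lost with DESeq2 size factors (adjusted p = 0.0612), by DESeq2 (0.0583), by limma voom (0.0526) and with no low-count filter (0.0929). The offsets for GC content and length together with the replicate block lost it too (0.0627). So did leaving out any one of luminal replicates 1, 2 and 5 or basal replicates 1, 2 and 5. Of these last fits, the lowest log2 fold change was 0.28 (adjusted p = 0.105) without luminal replicate 1. The highest was 0.45 (adjusted p = 0.0535) without luminal replicate 2. Over all alternatives the adjusted p of Itgb5 ran from 0.00840 to 1, the upper end being that of the test against a 2-fold change. Itgb8 (beta8, the other chain that activates latent TGF-beta) did not pass, at 30.0 ± 8.90 CPM in luminal and 25.9 ± 2.10 CPM in basal cells (SD, n = 5, log2 fold change 0.21, SE 0.19, adjusted p = 0.350).

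On the CPM per kb scale Itgb3, Itgb5, Itgb6 and Itgb8 each held different shares of the beta level in the 2 cell types. Itgb5 made up 24.8 ± 2.23% in luminal cells and 8.85 ± 0.788% in basal cells. Itgb3 made up 0.408 ± 0.219% and 7.86 ± 1.94%. Itgb6 made up 2.17 ± 0.411% and 0.125 ± 0.0697%, and Itgb8 2.05 ± 0.553% and 0.849 ± 0.0821%. The share ranges of these genes did not overlap between the groups. Nor did those of Itgb4 (12.5 ± 3.06% and 24.3 ± 2.51%) or of Itgb2, which had few reads (0.0358 ± 0.0366% and 0.163 ± 0.0471%). Among alpha chains Itgav held 26.3 ± 4.27% of the luminal level and 12.4 ± 0.829% of the basal level. In luminal cells Itgav (33.5 CPM per kb), Itga6 (32.2) and Itga3 (25.3) led the alpha chains with overlapping levels. In basal cells Itga3 (83.1) and Itga6 (82.7) had the highest means, followed by Itga5 (51.6), and the levels of Itga6 overlapped those of both. Itgav came next (40.9).

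**Figure D4:**
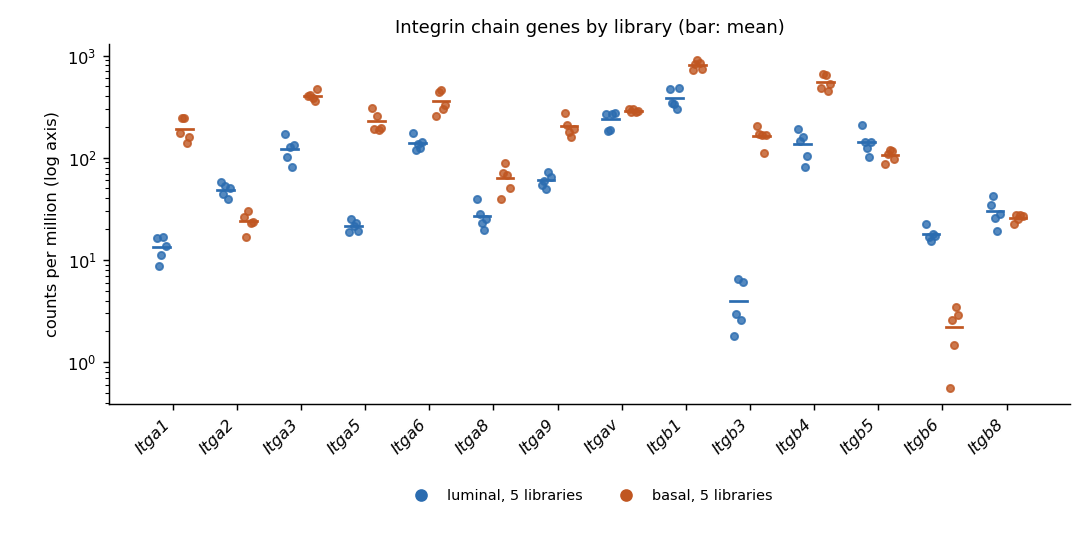
Level of 14 integrin chain genes in each library (y axis, CPM on a log scale), with luminal libraries in blue, basal libraries in orange and the group mean as a bar. Itgb3 ranges from 1.81 to 6.50 CPM in luminal and from 112 to 207 CPM in basal libraries, Itgb6 goes the other way, and Itgav stays between 183.5 and 300.4 CPM in all 10.

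Itga9 (alpha9, which pairs with beta1 and binds tenascin and VCAM1, chr9:118606709-118901003) measured 53.9, 59.8, 49.3, 72.3 and 64.9 CPM in luminal libraries and 273, 208, 179, 161 and 189.7 CPM in basal libraries. It was higher in every basal library (log2 fold change -1.75, SE 0.17, adjusted p = 4.35e-07). Itga8 (alpha8, the nephronectin receptor chain, chr2:12106632-12301985) measured 39.8, 28.1, 22.8, 19.4 and 25.3 CPM in luminal libraries and 39.7, 71.0, 88.8, 67.1 and 50.5 CPM in basal libraries. The groups overlapped through luminal and basal replicate 1, which were alike, and the gene was higher in basal cells (log2 fold change -1.23, SE 0.23, adjusted p = 3.36e-04). Itga2b, the platelet chain, measured 5.28 ± 2.55 CPM in luminal and 8.72 ± 2.298 CPM in basal cells and did not pass (log2 fold change -0.72, SE 0.31, adjusted p = 0.0570). With the replicate number as a block it did pass (-0.79, adjusted p = 0.0310), as it did without luminal replicate 2 (-1.03, adjusted p = 0.00646) or basal replicate 3 (-0.82, adjusted p = 0.0471). Over all alternatives, the test against a 2-fold change among them, its adjusted p ran from 0.00646 to 1. The 4 platelet markers summed to 2.90 to 6.72 CPM in luminal and 0.811 to 2.18 CPM in basal libraries. Pf4 was at 2.27 and 0.356 CPM on average and Gp1ba at 1.19 and 1.15 CPM, while Gp9 had at most 2 reads in any library. The part of platelet RNA in Itga2b was not tested.

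Of the integrin chains known from leukocytes, Itgad had the most reads and the rest had few. Itgal, Itgam, Itgax and the alpha4 chain gene Itga4 did not pass the filter, with at most 28 reads in any library. Of these Itgam shares 68.7% of its exon bases with Gm49368 on the same strand. Itgae (adjusted p = 0.0954) and Itgb7 (adjusted p = 0.456) were tested and did not pass, with at most 17 and 47 reads in a library. Itgb2, the common leukocyte beta chain, had 0 to 8 reads in luminal and 17 to 37 reads in basal libraries and was higher in basal cells (log2 fold change -3.14, SE 0.67, adjusted p = 9.22e-04). Itgad (alphaD) measured 4.15 ± 1.33 CPM in luminal and 9.66 ± 1.48 CPM in basal cells (SD, n = 5) without overlap (log2 fold change -1.22, SE 0.25, adjusted p = 7.51e-04), and its exons overlap those of 4 other annotated genes, 3 of them on the opposite strand. The 10 leukocyte markers summed to 20.2 to 27.4 CPM in luminal and 36.6 to 54.2 CPM in basal libraries. The T-cell genes Cd3e and Cd3g were at 0 in all 10 libraries and the pan-leukocyte gene Ptprc (CD45) did not exceed 0.381 CPM in any, whereas the macrophage genes Cd68 (8.28 against 29.7 CPM) and Csf1r (9.32 against 14.8 CPM) were higher in basal cells and Cd52 and Lyz2 in luminal cells. The part of leukocyte RNA in Itgb2 and Itgad was not tested.

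The inner plaque of the hemidesmosome was not uniformly basal. Plec (plectin, the plakin that links beta4 to keratin, chr15:76170974-76231378) measured 582, 452, 592, 310.5 and 491 CPM in luminal libraries and 283, 383, 403, 249.3 and 369 CPM in basal libraries. The groups overlapped, the luminal library was the higher one in all 5 pairs, and the test gave a log2 fold change of 0.53 (SE 0.20, adjusted p = 0.0306). That call was lost without luminal replicate 1 (0.47, adjusted p = 0.0610) or 3 (0.43, adjusted p = 0.0929), without basal replicate 1 (0.46, adjusted p = 0.0801) or 4 (0.42, adjusted p = 0.0776), and with no low-count filter (0.46, adjusted p = 0.0647). With offsets for GC content and transcript length the log2 fold change was 1.54. Over all alternatives its adjusted p ran from 3.69e-07 to 1, the upper end being that of the test against a 2-fold change. Dst (dystonin, the gene of BPAG1e, chr1:33907888-34308662) measured 243, 279, 352, 239.9 and 262 CPM in luminal libraries and 842, 654, 730.2, 425 and 753 CPM in basal libraries. Every basal library was above every luminal one (log2 fold change -1.31, SE 0.19, adjusted p = 3.37e-05), and with the offsets the log2 fold change was -0.63. Plec, Dst, Lama3 and Itga6 make several isoforms, and counts per gene do not separate the hemidesmosomal ones from the rest.

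Cd151, a tetraspanin that binds the laminin-binding integrins (chr7:141467362-141471481), measured 191, 204, 177, 167 and 214 CPM in luminal libraries and 312, 343, 392, 322 and 311 CPM in basal libraries. The groups were separate and the difference was moderate (log2 fold change -0.82, SE 0.13, adjusted p = 7.94e-05). Of the laminin receptors that are not integrins, Dag1 (dystroglycan, chr9:108204861-108263977) measured 242, 147, 145, 89.3 and 212 CPM in luminal libraries and 764, 1013, 929, 662 and 845 CPM in basal libraries. Every basal library was above every luminal one (log2 fold change -2.33, SE 0.24, adjusted p = 1.30e-06). Bcam (the Lutheran glycoprotein, a receptor for the laminin alpha5 chain, chr7:19756138-19770532) measured 171, 82.4, 72.9, 60.2 and 119 CPM in luminal libraries and 395, 723, 794, 734 and 569.5 CPM in basal libraries. It was higher in all basal libraries, most narrowly in pair 1 (log2 fold change -2.67, SE 0.29, adjusted p = 1.71e-06). Per length, Bcam (265 ± 66.6 CPM per kb) stood above Itgb1 (211 ± 20.2) on average in basal cells, whereas in luminal cells Bcam was at 41.6 ± 18.4 and Itgb1 at 101 ± 21.9. Thus the gene of the alpha5 chain was higher in luminal cells and that of one of its receptors in basal cells.

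Luminal replicate 1 was the highest luminal library for 9 of 22 genes higher in basal cells, Lamc1, Lamb3, Itgb4, Dag1 and Bcam among them. The 7 basal markers summed to 28.5 CPM in it and to between 26.5 and 78.9 CPM in the rest of the luminal libraries. Without this library the number of genes higher in basal cells was 23.

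Partner genes were taken from 4 lists. Of 20 basement membrane partners, 18 were tested, and 15 were higher in basal cells (83.3%) and 1 in luminal cells (5.56%), against 31.2% and 33.6% of all genes tested, with a median log2 fold change of -3.26. Col17a1 (the hemidesmosomal transmembrane collagen) measured 2.75 ± 1.07 CPM in luminal and 470.2 ± 99.3 CPM in basal cells (log2 fold change -7.42, SE 0.30, adjusted p = 1.40e-10). Col4a2 (a type IV collagen chain) measured 6.40 ± 0.867 and 725 ± 140.1 CPM (log2 fold change -6.82, SE 0.21, adjusted p = 2.75e-11; -6.20 with the offsets). The one member higher in luminal cells was Npnt (nephronectin, the ligand of alpha8 beta1), at 7.22 ± 3.29 and 2.97 ± 0.776 CPM (log2 fold change 1.28, SE 0.32, adjusted p = 0.00311), which is opposite in direction to Itga8.

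Of 18 integrin activators and linkers, 17 were tested, and 11 were higher in basal (64.7%) and 2 in luminal cells (11.8%), against 31.2% and 33.6% of all genes tested, with a median of -0.85. Among those at 5 CPM or more in their higher group, the most basal were Lims2 (PINCH2, an adaptor of integrin-linked kinase), at 0.306 ± 0.312 and 43.0 ± 17.0 CPM (adjusted p = 3.04e-08), and Ilk (integrin-linked kinase), at 30.8 ± 4.38 and 173 ± 26.0 CPM (log2 fold change -2.49, SE 0.15, adjusted p = 5.53e-09). Itgb1bp1 (ICAP1, which binds the beta1 tail and holds the integrin inactive) was higher in luminal cells, at 27.6 ± 7.61 and 17.7 ± 3.30 CPM (log2 fold change 0.64, SE 0.20, adjusted p = 0.0120). That call was lost with offsets for GC content and transcript length (0.38, adjusted p = 0.0742). Over all alternatives its adjusted p ran from 0.00233 to 1, the upper end being that of the test against a 2-fold change.

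In the list of the dystroglycan complex and its glycosylation enzymes, 17 of 19 genes were tested. Of these 5 were higher in basal cells and 5 in luminal cells (29.4% each), close to the 31.2% and 33.6% of all genes tested, and the median was 0.00. Sntb1 (beta1-syntrophin) was higher in luminal cells (log2 fold change 1.27, SE 0.16, adjusted p = 9.14e-06). Pomt2, an enzyme that starts the glycan, was higher in basal cells, at 8.27 ± 2.13 and 28.5 ± 1.95 CPM (log2 fold change -1.79, SE 0.18, adjusted p = 1.11e-06), as was Sgcb (beta-sarcoglycan, log2 fold change -2.60, SE 0.32, adjusted p = 7.27e-06).

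Of 11 further integrin ligands, 8 were tested and all 8 passed, 6 as higher in basal (75%) and 2 in luminal cells (25%), against 31.2% and 33.6% of all genes tested, with a median of -3.25. Mfge8, a milk fat globule protein with an RGD motif for alphav integrins, measured 1173 ± 390 CPM in luminal and 195 ± 20.4 CPM in basal cells (log2 fold change 2.59, SE 0.22, adjusted p = 1.60e-07). Cdh1 (E-cadherin, the ligand of the Itgae product) was also higher in luminal cells (log2 fold change 1.26, SE 0.15, adjusted p = 5.11e-06). Vcam1, a ligand of alpha9 beta1, measured 1.55 ± 1.04 and 141 ± 19.2 CPM (log2 fold change -6.54, SE 0.33, adjusted p = 8.05e-10), and Fbln1 (fibulin-1) 0.717 ± 0.725 and 43.6 ± 16.3 CPM (log2 fold change -5.87, SE 0.53, adjusted p = 2.66e-07).

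**Figure D5:**
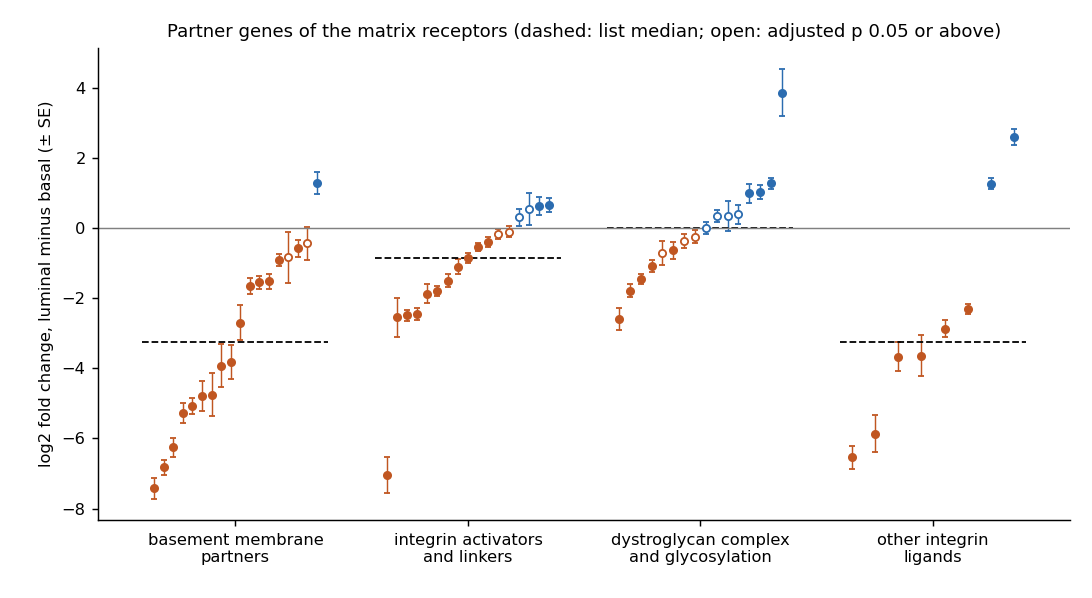
Log2 fold change between luminal and basal cells (y axis, luminal minus basal, bars show the SE) of 59 tested genes in the 4 partner lists, ordered within each list, with filled points for an adjusted p under 0.05 and a dashed line at the list median. The medians are -3.26, -0.85, 0.00 and -3.25 from left to right.

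Markers of other cells that hold many of these genes were also measured. The 6 endothelial markers summed to 69.4 to 116 CPM in luminal and 7.88 to 17.0 CPM in basal libraries. Most of the luminal sum was Vwf (81.6 against 2.25 CPM on average), whereas Cdh5 was higher in basal cells (0.217 against 4.58 CPM, log2 fold change -4.37, adjusted p = 3.51e-06). Pecam1, the gene of CD31, was at 2.71 and 3.74 CPM and did not pass, and Kdr and Emcn had at most 14 reads in any library. Of the 5 pericyte markers, Notch3 was higher in luminal cells and the other 4, such as Rgs5 (0.160 against 21.7 CPM), were higher in basal cells. The 5 fibroblast markers summed to 22.1 to 113 CPM in luminal and 24.8 to 41.5 CPM in basal libraries. Dcn was higher in luminal cells (38.3 ± 33.4 against 12.0 ± 1.43 CPM), with 95.1 CPM in luminal replicate 1, and Pdgfra was higher in basal cells (5.82 against 12.4 CPM, adjusted p = 0.00594). The 3 Schwann cell markers summed to 56.7 to 157 and 285.8 to 329 CPM. The 3 adipocyte markers summed to 0.611 to 1.60 and 3.95 to 8.88 CPM. The part of endothelial, fibroblast, pericyte and Schwann cell RNA in Lama4, Itga7, Itga8 and the other members was not tested.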

How the data were processed

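RNA-seq reads of 10 libraries (5 luminal, 5 basal) were analysed from one table of raw counts per gene that the authors deposited as whole numbers. The submitters' processing notes name cutadapt 4.2 and Bowtie2 2.3.5.1, and the study's methods name build mm10; the counting tool, its annotation and its use of strand are not given in the sources used here. Bowtie2 leaves out reads that span a splice junction, so genes with many short exons may be undercounted, and overlapping exons may share reads. Of 24594 Entrez identifiers 24570 were matched to symbols in the RefSeq table of GRCm38.p6, the assembly behind mm10, from which coordinates were taken.

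Genes were filtered with filterByExpr (minimum count 10, minimum total 15), scaled with TMM factors and tested with edgeR 4.0.16 (R 4.3.3) by the two-sided quasi-likelihood test on cell type alone, with Benjamini-Hochberg adjustment over the 14609 genes tested. Fold changes are luminal minus basal on the log2 scale, and the SE was derived from the F statistic. Lengths are of the longest GENCODE M21 transcript. The tests were run on simulated data first. Replicate numbers pair libraries that share the leading number of their description, read here as the animal; deviations of same-numbered libraries correlated at -0.13 to 0.25. Nothing else in the labels says that replicates are separate animals, and p-values measure only the spread between these libraries. Members at 5 CPM or more on average in their higher group are given with values and the rest by read counts. Of each partner list up to 2 genes in each direction were named, those of largest fold change that passed the test and this level. Other genes named were chosen after their values were seen. A total of 2 genes, a member and a partner gene, enter the counts and sums but are not reported here by name. The members and lists were chosen with earlier results of these data known. Alternatives were DESeq2 size factors, upper-quartile factors, library totals, no filter, at least 10 counts in every library, DESeq2 1.42.0, limma 3.58.1 voom, a test against a 2-fold change, the replicate block, offsets for GC content and length, both together, and leaving out each library.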

Additional observations from a re-analysis of the deposited data

Results flagged for a closer look

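In each group of 5 libraries the highest and lowest values of the genes given with values were compared with the rest by Dixon's test, and 4 of 88 groups held a library that stood apart, where chance flags about 1 in 20 groups (4.4 here). Lama3 was at 14.3 CPM in luminal replicate 5 and at 8.07 to 9.70 CPM in the other luminal libraries. In luminal replicate 4, Sgcb reached 9.16 CPM while its remaining luminal values were 2.44 to 3.80 CPM, and Vcam1 reached 3.36 CPM while its remaining luminal values were 0.675 to 1.33 CPM. Mfge8 was at 230.1 CPM in basal replicate 2 and at 181 to 194 CPM in the other basal libraries.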

How the results depend on the processing

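Of the alternative values of single genes (899 values of 43 genes), 850 kept the direction and the side of the threshold, 37 fell short of it, 10 passed it only under the alternative and 2 changed sign. Both sign changes were of Itgav, which did not pass in the first place: 0.039 with offsets for GC content and transcript length and 0.013 with the offsets and the replicate block. With the offsets alone Itga10 (0.37) and Itgb8 (0.56) passed. Members higher in luminal cells numbered 3 without a low-count filter, 1 against a 2-fold change, 7 with offsets for GC content and length, and 3 to 5 when each library was left out. Members higher in basal cells numbered 16 against a 2-fold change and 21 to 25 under the other alternatives. That 2-fold test called 1913 genes as luminal and 1995 as basal over the whole table, and 7 integrin activators and linkers and 5 genes of the dystroglycan complex passed, since that test asks for more than a difference. With the replicate block (paired libraries) the members split into 4 luminal and 24 basal calls. Of the 43 single genes followed under the alternatives, only Itgb5 and Itga2b changed their call with it. Scaling by library totals moved the median log2 fold change of all genes by 0.19 and upper-quartile factors by 0.12. The log2 fold change of Fbln1 was -6.52 without luminal replicate 5, and by limma voom it was -6.53 for Fbln1 and -7.83 for Lims2. Itgal, Itgam, Itgax, Itga4, Lama2 and Lamc3 had too few reads to be tested, and the reason for the few reads was not tested. The cause of each other change was not tested.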
